A study of Danio rerio with 6 samples.

Results

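The Notch ligand gene jag2b, the Notch receptor gene notch3 and the fringe gene lfng were followed in RNA-seq libraries of distal pronephric tubule, a segment of the larval fish kidney, cut out of zebrafish embryos by laser microdissection at 48 hours post fertilization. They are 3 of 10022 rows in the deposited count table and were chosen by name, with earlier results from these same libraries in view. The contrast of mutants with controls is therefore given for these genes as a description, without a test. The epcam mutant group has 3 libraries with the genotype epcamhi2151/hi2151, and the control group has 3 libraries with the genotype epcam+/+. Both groups carried Tg(wt1b:GFP), which labels the glomerulus, and Tg(cdh17:GFP), which labels the tubule. The number of embryos behind a library and whether libraries come from separate embryos are not given in the sources used here. Spread between libraries may therefore be partly technical.

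Notch signalling works between touching cells. A ligand of the Jagged or Delta families on one cell binds a Notch receptor on its neighbour, the receptor is cut, and its inner part enters the nucleus and joins the DNA-binding protein Rbpj to switch on genes of the her and hey families. Fringe enzymes add a sugar to the receptor's extracellular repeats and so alter which ligands it responds to. In the zebrafish pronephros Notch signalling restrains the multiciliated fate, which moves fluid, in favour of the transporting fate, and Jagged2 ligands are known for that choice.

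Total counts ranged from 126861 to 250714 in the mutants and from 188022 to 746232 in the controls, after removal of 1 constant per library (17 to 31 in the mutants and 0 to 32 in the controls). A count of 3 equals 12.0 to 23.6 CPM (counts scaled to a common library total) in the mutants and 4.02 to 16.0 CPM in the controls. Correlations of log2 levels between libraries of a group, across genes that are not independent replicates, were only 0.14 to 0.33 in mutants and 0.25 to 0.49 in controls. Transcripts of epcam were counted 0 times in each mutant, against 10, 15 and 10 times in controls 1 to 3. Libraries also differed in the level of tubule markers. The summed level of 16 pan-pronephric genes was 10549, 1529 and 5297 CPM in mutants 1 to 3, against 9438, 7947 and 1558 CPM in controls 1 to 3. Control 3 and the mutants share 1 prefix in their library names, and controls 1 and 2 share another. In tissue samples such as these, fewer cells of a type and less RNA per cell cannot be told apart. The libraries were unstranded, and a gene cannot be parted from an antisense neighbour.

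The ligand gene jag2b (ENSDARG00000021389, GRCz10 chromosome 20, 21491519 to 21575956, plus strand) was counted 246, 52 and 28 times in mutants 1 to 3, against 9, 18 and 14 times in controls 1 to 3. These counts equal 1428, 409.9 and 112 CPM in mutants 1 to 3, against 16.3, 24.1 and 74.5 CPM in controls 1 to 3. On this scale every mutant lay above every control, and mutant 1 was far above the rest. The counting interval of mutant 1 was 1255 to 1618 CPM, while those of mutant 3 (74.2 to 161 CPM) and control 3 (40.7 to 125 CPM) overlapped (95% exact binomial intervals, counting error only). After scaling by edgeR's trimmed mean of M-values (TMM), the lowest mutant had 80.0 CPM and the highest control 82.3 CPM, so the groups touched. The mean level was 649.9 ± 690.3 CPM in mutants and 38.3 ± 31.6 CPM in controls (SD, n = 3 each), a ratio of 17.0. This ratio was 6.81 without mutant 1 and 32.2 without control 3. The log2 fold change fitted by edgeR across all genes was 3.74 ± 1.42 (SE), and 2.21 without mutant 1.

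The receptor gene notch3 (ENSDARG00000052139, GRCz10 chromosome 3, 53275051 to 53304745, minus strand) was counted 57, 12 and 2029 times in mutants 1 to 3, against 57, 182 and 12 times in controls 1 to 3. In CPM these are 331, 94.6 and 8093 in mutants 1 to 3, against 103, 244 and 63.8 in controls 1 to 3. The groups overlapped, and a single library, mutant 3, held 90.6% of the summed CPM of the gene. There notch3 ranked 3 among 10022 rows and made up 0.809% of all counts, whereas it ranked 516 in mutant 1, 2751 in mutant 2 and 770 in control 2. The mean was 2839 ± 4551 CPM in mutants and 137 ± 94.7 CPM in controls (SD, n = 3 each), a ratio of 20.7, but the ratio of medians was 3.21. Without mutant 3 the means were 213 CPM in mutants and 137 CPM in controls, a ratio of 1.55. The fitted log2 fold change was 3.72 ± 1.60 (SE) with all libraries and 0.31 ± 1.62 without mutant 3. The high mean in mutants was thus a property of 1 library of 3.

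The fringe gene lfng (ENSDARG00000037879, GRCz10 chromosome 3, 41775641 to 41785011, plus strand) encodes a fucose-specific N-acetylglucosaminyltransferase. It was counted 11, 10 and 29 times in mutants 1 to 3, against 0, 2 and 0 times in controls 1 to 3. These counts equal 63.9, 78.8 and 116 CPM in mutants 1 to 3, against 0, 2.68 and 0 CPM in controls 1 to 3. The groups did not overlap on this scale or after TMM scaling, and the mutants lay within 1.81-fold of each other. The floor of 3 counts was 5.43 CPM in control 1 and 16.0 CPM in control 3, and the 95% exact intervals of their counts of 0 reached 6.68 and 19.6 CPM. The pooled ratio of mutants to controls was 67.6, with a 95% exact binomial interval of 17.8 to 573.5 from only 2 control counts. This interval covers counting error only, leaves out the spread between libraries and is no test of the groups. Without any 1 mutant the pooled ratio ranged from 52.2 to 76.8, without control 1 it was 42.5 and without control 3 it was 59.0. Without control 2, whose 2 counts are all that controls had, mutants were at least 8.05-fold higher against 3 counts in each remaining control. The row passed the filter on low counts through the mutants alone, so a difference was built into its passing.

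**Figure D1:**
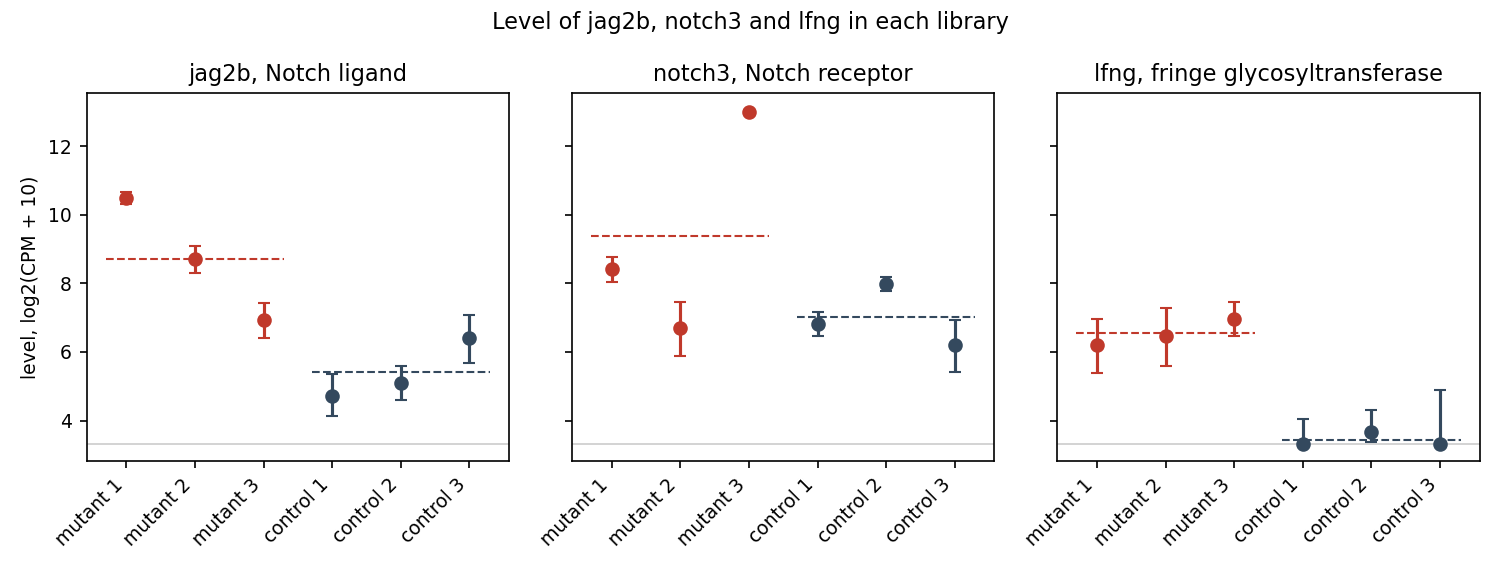
Level of jag2b, notch3 and lfng as log2(CPM + 10) in mutants 1 to 3 (red) and controls 1 to 3 (dark), with 95% exact binomial counting intervals and dashed means of each group; the grey line marks 0 CPM. The 3 mutants of lfng sit together above the controls, jag2b descends from 1428 CPM in mutant 1 to 112 CPM in mutant 3, and notch3 stands out in mutant 3 alone.

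The 3 genes were not high in the same mutant. The highest level of jag2b was in mutant 1 and its lowest mutant level was in mutant 3, while notch3 and lfng were both highest in mutant 3. Over the 6 libraries, which share their depth and cell content, Pearson's r of log2(CPM + 10) was 0.73 between jag2b and lfng, 0.62 between notch3 and lfng, and 0.09 between jag2b and notch3. All 3 values contain the group difference with which the genes were chosen. A median tested gene had 41.5% of its summed CPM in its highest library, with quartiles of 34.5% and 51.9%. The value was 44.3% for lfng and 69.2% for jag2b. A share above the 90.6% of notch3 was found in 0.388% of the 3869 tested genes. Groups did not overlap, with mutants above, for jag2b and lfng, and the same held for 16.2% of tested genes. On the TMM scale this held for lfng alone, and for 12.8% of tested genes; 9.41% then had mutants below, against 5.58% without TMM scaling.

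The deposited values for lfng were 41, 41 and 46 in mutants 1 to 3, against 11, 2 and 32 in controls 1 to 3, before the lowest value of each library was removed. Those for jag2b were 276, 83 and 45 in mutants 1 to 3, against 20, 18 and 46 in controls 1 to 3. In these values the lfng groups were apart, and jag2b in mutant 3 was 1 below control 3. They are not scaled for depth and hold the constants, of 30, 31 and 17 in mutants 1 to 3 and 11, 0 and 32 in controls 1 to 3. The constants of mutants 1 and 2 alone exceed the lfng values of controls 1 and 2. Neither comparison therefore checks the counts. For notch3 the unadjusted values were 87, 43 and 2046 in mutants 1 to 3, against 68, 182 and 44 in controls 1 to 3. The authors' deposited table of 379 differing genes lists 0 of the 3 genes and 0 of the other Notch pathway genes examined here.

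Among the ligands, 8 genes had a row. Besides jag2b these were jag1a, jag1b, jag2a, dlb, dlc, dll4 and dner, and their groups all overlapped. The other Jagged genes jag1b, at 90.7 ± 49.8 CPM in mutants and 149.9 ± 149.1 CPM in controls, and jag2a, the close relative of jag2b, at 123 ± 138 CPM in mutants and 14.5 ± 9.18 CPM in controls, show how widely levels varied (SD, n = 3 each). The count of jag2a was 1, 35 and 22 in mutants 1 to 3, against 10, 3 and 4 in controls 1 to 3. It was nearly absent from mutant 1, where jag2b was highest. The endothelial Delta gene dll4 was counted 5, 2 and 43 times in mutants 1 to 3, against 3, 1 and 4 times in controls 1 to 3, and it was highest in mutant 3. The Delta genes dlb and dlc and the Delta- and Notch-like gene dner had at most 19, 33 and 22 counts in any library, each in control 2. The remaining ligand, jag1a, had 0, 22 and 4 counts in mutants 1 to 3, against 0, 25 and 17 counts in controls 1 to 3.

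Within the counts of all 8 ligand rows, jag2b held 87.5% in mutant 1 (95% exact binomial interval 83.1% to 91.2%), 38.8% in mutant 2 and 19.2% in mutant 3, against 4.46%, 11.7% and 19.2% in controls 1 to 3. Longer transcripts collect more reads, so such a share is read across libraries and not between genes. Mutant 3 and control 3 had the same share, and mutants 1 and 2 stood above every control. The level of the 7 ligands without jag2b was 203, 646 and 471 CPM in mutants 1 to 3, against 349, 182 and 314 CPM in controls 1 to 3. It overlapped between groups.

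All 4 receptor genes had a row. The widely expressed receptor notch2 was at 369.9 ± 228.0 CPM in mutants and 451 ± 358 CPM in controls, and notch1b at 242 ± 137 CPM in mutants and 149 ± 106 CPM in controls (SD, n = 3 each). Their log2 fold changes were -0.72 ± 1.19 and 0.26 ± 1.22 (SE), each smaller than its error. The receptor notch1a was counted 0, 2 and 45 times in mutants 1 to 3, against 0, 2 and 1 times in controls 1 to 3. As with notch3 and dll4, its high value was in mutant 3. Of the receptor counts, notch3 held 36.8%, 11.1% and 92.0% in mutants 1 to 3, against 20.4%, 18.4% and 16.4% in controls 1 to 3. The other receptors together had 569, 757 and 706 CPM in mutants 1 to 3, against 404, 1080 and 324 CPM in controls 1 to 3, with no such peak in mutant 3.

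The other fringe genes did not share the pattern of lfng. The counts of mfng were 0, 2 and 0 in mutants 1 to 3, against 8, 19 and 0 in controls 1 to 3. Those of rfng were 0, 4 and 8 in mutants 1 to 3, against 240, 4 and 2 in controls 1 to 3, with control 1 alone high. As a share of fringe counts, lfng was 100% (11 of 11), 62.5% and 78.4% in mutants 1 to 3, against 0%, 8% and 0% in controls 1 to 3. The share in control 3 rests on 2 counts, and its 95% exact binomial interval reaches 84.2%. The fucosyltransferase gene pofut1, whose sugar the fringe enzymes extend, was at 17.2 ± 20.5 CPM in mutants and 18.8 ± 24.5 CPM in controls (SD, n = 3 each).

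**Figure D2:**
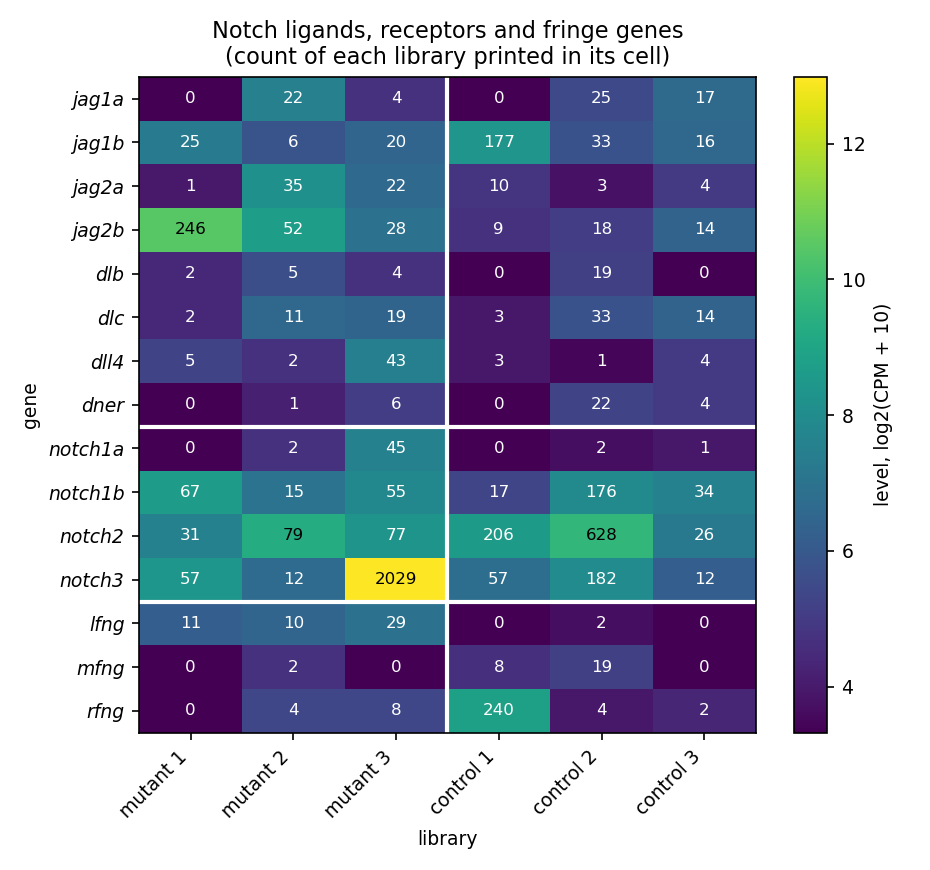
Level as log2(CPM + 10) of the ligand, receptor and fringe genes (rows, parted by white lines) in mutants 1 to 3 and controls 1 to 3, with each count printed. The brightest cells are notch3 in mutant 3, with 2029 counts, and jag2b in mutant 1, with 246 counts, while lfng is the fringe gene found in every mutant.

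**Figure D3:**
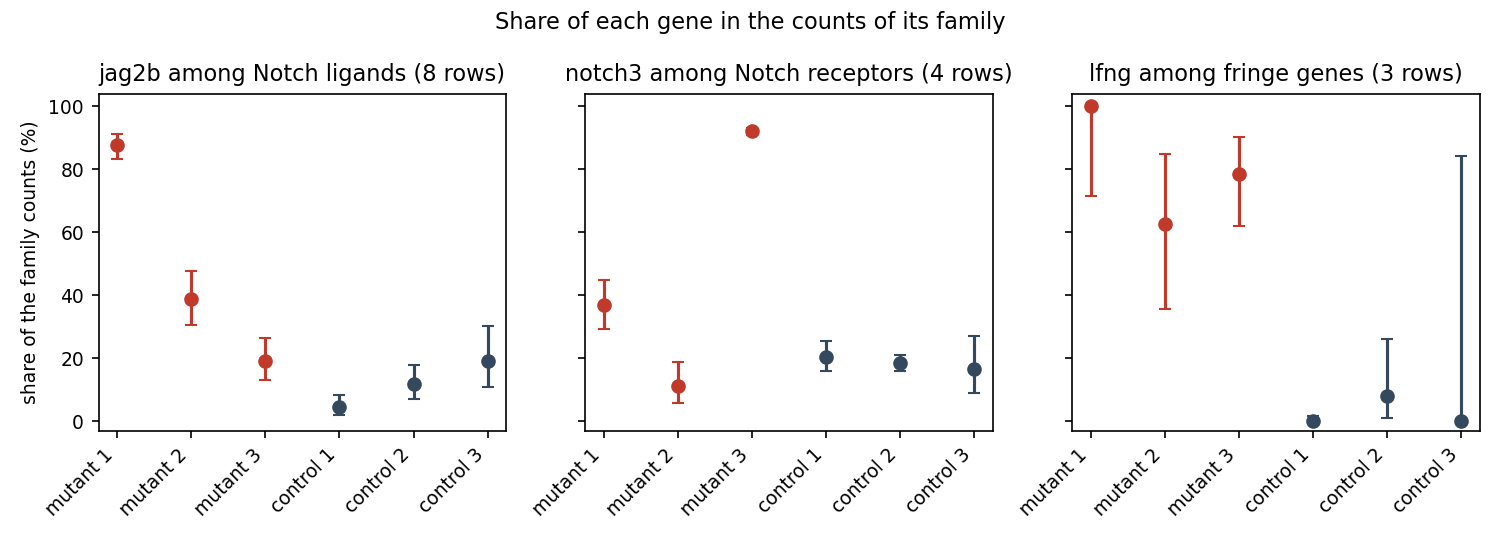
Share of jag2b in ligand counts, of notch3 in receptor counts and of lfng in fringe counts, in mutants 1 to 3 (red) and controls 1 to 3 (dark), with 95% exact binomial intervals. Mutant 3 stands alone for notch3, and the lfng share of 62.5% or more in mutants faces 8% or less in controls, with a wide interval in control 3.

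The rest of the pathway was drawn from a list by role. Of 78 listed genes other than the 3 described, 47 had a row and 21 passed the filter on low counts. With edgeR's quasi-likelihood test and Benjamini-Hochberg adjustment over 3869 genes, 0 of the 21 had an adjusted p under 0.05 and 0 had an unadjusted p under 0.05. The same test called 0% of all tested genes after adjustment and 11.2% before. DESeq2 called 0 of the 36 to which it gave an adjusted p, against 3.68% of all such genes called higher and 0.703% called lower. At an unadjusted p under 0.05 DESeq2 counted 3 of the 36, against 1689 of all 7961 such genes. Limma-voom called 0 of the 21. It counted 0 of them at an unadjusted p under 0.05, against 554 of all 3869 tested genes. Log2 fold changes were above 0 for 6 and below 0 for 15 of the 21 genes, or 28.6% above 0 against 47.8% of all tested genes. Their median was -0.57, against -0.10 for all tested genes. Under upper-quartile scaling the medians were -0.30 and 0.19.

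Of the genes for receptor cleavage, 4 were tested and all had a log2 fold change below 0. The gamma-secretase subunit psenen was at a log2 fold change of -2.63 ± 1.44, the sheddase adam17a at -2.73 ± 1.54 and the convertase furina at -2.06 ± 1.44 (SE, n = 3 per group). The other sheddase gene tested, adam10a, was at -1.02, and none passed the test. Counts of psenen were 1, 10 and 12 in mutants 1 to 3, against 61, 333 and 7 in controls 1 to 3, so that control 3 was below mutants 2 and 3. The 4 tested genes of ligand and receptor endocytosis had log2 fold changes smaller than their SE. The endocytic adaptor epn1 was at 0.43 ± 1.33 and the ubiquitin ligase gene dtx4b at 0.65. All 12 rows of this role summed to 1068, 654 and 758 CPM in mutants 1 to 3, against 284, 541 and 335 CPM in controls 1 to 3. By library total these groups were apart. With TMM scaling they overlapped, at 539 to 987 CPM in mutants and 347 to 735 CPM in controls. In the nuclear complex, the corepressor ncor1 was at -2.29 ± 1.45 and the coactivator maml3 at 0.04 ± 1.41. The mean of ncor1 in controls, 2920 ± 4347 CPM (SD, n = 3), was set by 5924 counts in control 2, and mutants had 778 ± 747 CPM. The corepressor spen was at -1.34 ± 1.29.

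Of 19 listed her, hey and nrarp genes, the usual readout of Notch activity, 3 had a row, and the others are not analysed here. The repressor gene her9 was counted 5, 36 and 19 times in mutants 1 to 3, against 61, 24 and 2 times in controls 1 to 3. The feedback gene nrarpa was counted 0, 24 and 55 times in mutants 1 to 3, against 1, 24 and 49 times in controls 1 to 3. The repressor gene her6 had at most 6 counts in mutants and 20 in controls. Groups overlapped for all 3, with log2 fold changes of 0.91 ± 1.38 for her9 and -0.07 ± 1.71 for nrarpa (SE), neither past the test. In mutant 1, where jag2b was highest, nrarpa had no count and her9 was at 29.0 CPM.

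Outside the tested set, 6 pathway genes had groups that did not overlap, and they are named here after their values were seen. Mutants were above for 5 of 47 rows, or 10.6%, against 14.5% of all 10022 rows. These were aph1b of the gamma-secretase complex, the Notch inhibitors numb and numbl, the ubiquitin ligase dtx1 and the receptor-degrading fbxw7. The counts of numb were 5, 18 and 15 in mutants 1 to 3, against 0, 4 and 0 in controls 1 to 3. The counts of aph1b were 35, 12 and 8 in mutants 1 to 3, against 0, 0 and 3 in controls 1 to 3. On the TMM scale dtx1 overlapped, which left 4 rows with mutants above, against 11.2% of all rows. The gamma-secretase subunit ncstn was the 1 gene with mutants below, against 3.75% of all rows and 6.08% on the TMM scale. It had 0, 0 and 1 counts in mutants 1 to 3 and 24, 10 and 2 in controls 1 to 3. Controls 2 and 3 were at 13.4 and 10.6 CPM, under the 3-count floors of 17.4 and 23.6 CPM in mutants 1 and 2. Counts of 0 in those mutants therefore cannot show that they lay below these controls.

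**Figure D4:**
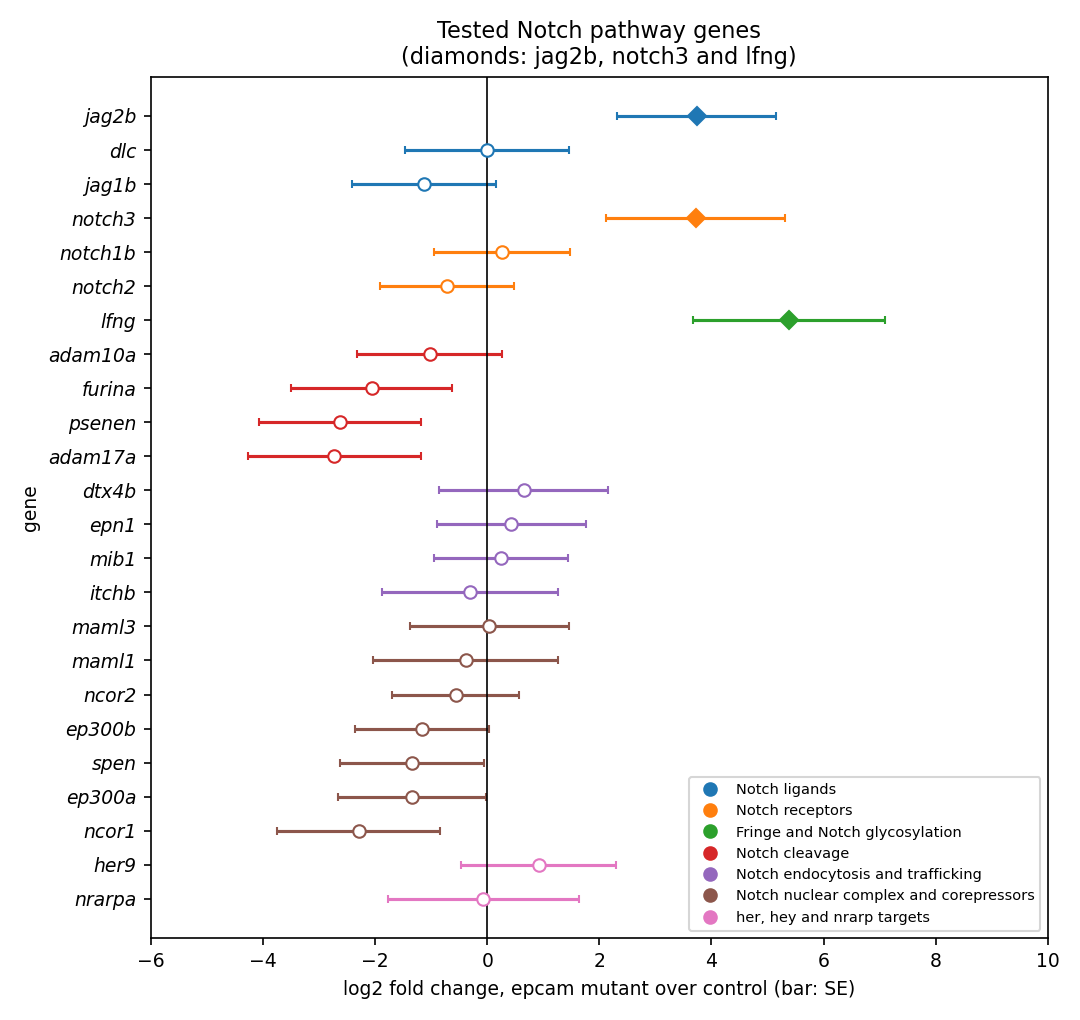
Log2 fold change of epcam mutant over control with its SE for the 24 Notch pathway genes that passed the filter on low counts, grouped by role (colours), n = 3 libraries per group. The diamonds of jag2b, notch3 and lfng lie to the right by the way they were chosen, the value of lfng depends on the prior count of the fit, and of the 21 other genes 15 lie below 0.

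Lists for the fates that Notch chooses between were set beside these genes. Multiciliated fate regulators, with 13 of 19 genes on a row, summed to 1155, 1569 and 1336 CPM in mutants 1 to 3, against 1267, 1553 and 234 CPM in controls 1 to 3. The ratio of their group means was 1.33, and 0.848 on the TMM scale, so its direction depends on scaling. The most abundant were the ciliary transcription factor foxj1a, at 191 ± 158 CPM in mutants and 171 ± 168 CPM in controls, and the metabolic regulator ppargc1a, at 354 ± 150 CPM in mutants and 567 ± 503 CPM in controls (SD, n = 3 each). The Geminin-related regulator gmnc was counted 53 times in mutant 2, 0 times in mutants 1 and 3 and at most 2 times in a control. Ciliary axoneme genes, with 7 of 15 on a row, summed to 1585, 434 and 630.2 CPM in mutants 1 to 3, against 549, 280.1 and 149 CPM in controls 1 to 3. Mutant 1, highest for jag2b, was also highest for this list, mainly through cfap57 at 871 CPM. Of the 6 tested axonemal genes, 4 had a log2 fold change above 0 and 2 below 0. The latter were dnah5, at -1.58 ± 1.39, and cfap43, at -0.46 ± 1.31 (SE). Counts of dnah5 were 13, 14 and 24 in mutants 1 to 3, against 264, 106 and 1 in controls 1 to 3.

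Transporting cell genes, with 17 of 23 on a row, summed to 12808, 3058 and 5639.9 CPM in mutants 1 to 3, against 13830 CPM, 12256 CPM and 1191 CPM in controls 1 to 3. The sodium pump subunits atp1a1a.4 and atp1b1a led this list, at 2783 ± 2269 and 1466 ± 840 CPM in mutants and 3023 ± 2350 and 2512 ± 2176 CPM in controls (SD, n = 3 each). In 4 of the 17 rows mutants lay above controls on both scales, against 14.5% of all 10022 rows by library total and 11.2% with TMM scaling. These rows, named after their values were seen, were slc12a1, slc26a1, kcnj1a.1 and lrp2b. Mutants also lay above on both scales in 3 of 7 axonemal, 1 of 13 multiciliated regulator and 1 of 16 pan-pronephric rows. Of the 12 tested genes of the transporting list, 5 had a log2 fold change above 0 and 7 below 0. Among the latter, slc12a3 was at -1.56 ± 1.38 and slc4a2a at -1.68 ± 1.47 (SE). The ratio of the group means of the list sum was 0.788, and 0.528 on the TMM scale, and groups overlapped on both scales. Pan-pronephric cdh17, the adhesion gene that drives one transgene, was at 791 ± 832 CPM in mutants and 1564 ± 1280 CPM in controls (SD, n = 3 each). By edgeR's quasi-likelihood test 0 genes of these 4 lists had an adjusted p under 0.05. At an unadjusted p under 0.05 edgeR counted 3 of 6 tested axonemal, 2 of 12 transporting, 1 of 10 pan-pronephric and 0 of 5 multiciliated regulator genes. All were higher in mutants, where the share over all tested genes was 7.73%. The axonemal dnah9, cfap57 and ift140 and the transporting slc12a1 and lrp2b had at most 21.3 CPM in any control. Like lfng, these rows passed the filter on low counts through the mutants alone. The multiciliated, axonemal, transporting and pan-pronephric lists had 13, 7, 17 and 16 rows, some of them shared. DESeq2 called 1 gene of these lists, the endocytic receptor gene lrp2b, higher in mutants. Of all genes with an adjusted p it called 3.68% higher. Counts of lrp2b were 153, 30 and 20 in mutants 1 to 3, against 6, 0 and 4 in controls 1 to 3. That descent over the mutants has the order of jag2b.

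Of the marker lists for cells around the tubule, the neural list and the liver and yolk list had sums that did not overlap between groups. By library total the endothelial, mural, muscle, skin and blood sums overlapped. With TMM scaling the skin sums were apart too, at 598 to 3085 CPM in mutants and 3262 to 39330 CPM in controls. Neural genes, with 7 of 18 on a row, summed to 424, 654 and 929 CPM in mutants 1 to 3, against 112, 44.2 and 47.9 CPM in controls 1 to 3. These sums did not overlap, they were highest in mutant 3, and lfng followed the same order over the mutants. That order was not particular to the neural list. Muscle sums were 2618, 6519 and 8484 CPM in mutants 1 to 3, and liver and yolk sums were 284, 528 and 770 CPM. Among the neural rows sox1b followed it in CPM, whereas elavl4, neurog1, zic2a, nova1 and ascl1a did not. The neuronal RNA-binding gene elavl4 was counted 10, 49 and 58 times in mutants 1 to 3, against 40, 2 and 5 times in controls 1 to 3. The proneural gene neurog1 was counted 28, 2 and 51 times in mutants 1 to 3, against 0, 0 and 3 times in controls 1 to 3, while zic2a and nova1 were at 0 in every control. The proneural gene ascl1a had 7, 0 and 77 counts in mutants 1 to 3, against 0 in every control. The progenitor genes sox1a and sox1b went another way: sox1a had 0 counts in every mutant, against 0, 31 and 0 counts in controls 1 to 3, and sox1b had 0, 3 and 12 counts in mutants 1 to 3, against 22, 0 and 1 counts in controls 1 to 3. DESeq2 called zic2a and nova1 higher in mutants (adjusted p of 0.025 and 0.035), against 3.68% of all genes with an adjusted p. By edgeR 0 genes of the list were called after adjustment, and its filter on low counts kept zic2a and nova1 through the mutants alone. Notch ligands, receptors and fringe genes are also expressed in embryonic neural tissue. The part of neural RNA in the levels of jag2b, notch3 and lfng was not tested.

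Endothelial genes, with 6 of 12 on a row, ranged from 157 to 528 CPM in mutants and from 149 to 596 CPM in controls, and mural cell genes, with 3 of 8, from 238 to 615 CPM in mutants and from 17.4 to 2239 CPM in controls. The receptor notch3 is known for mural cells, and the part of such cells in its level was not tested. Among these markers cdh5 was at 132 ± 220 CPM in mutants and 115 ± 153 CPM in controls, (SD, n = 3 each), and the lymphatic and venous receptor flt4 was counted 2, 3 and 6 times in mutants 1 to 3, against 143, 42 and 22 times in controls 1 to 3. The vascular receptor flt1 was counted 9, 10 and 32 times in mutants 1 to 3, against 0, 1 and 16 times in controls 1 to 3, and the endothelial factor fli1a 15, 2 and 19 times in mutants 1 to 3, against 0, 16 and 0 times in controls 1 to 3. The pericyte gene cspg4 was counted 7, 31 and 50 times in mutants 1 to 3, against 16, 3 and 14 times in controls 1 to 3, and the channel subunit abcc9 was highest in control 3, at 2133 CPM. The smooth muscle myosin gene myh11a had 174, 158 and 116 CPM in mutants 1 to 3, against 1.81, 13.4 and 31.9 CPM in controls 1 to 3. It was the mural row whose groups did not overlap on either scale. Mutants lay above in 14.5% of all rows by library total and in 11.2% with TMM scaling. The row passed the filter on low counts through the mutants alone. Muscle genes ranged from 2618 to 8484 CPM in mutants and from 782 to 19003 CPM in controls, led by mylpfa and ckma. The blood list had 2 rows, hbae1.1 and hbbe3, with at most 221 CPM in mutants and 65.7 CPM in controls.

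Liver and yolk genes, with 12 of 13 on a row, summed to 284 to 769.8 CPM in mutants and 8131 to 96739 CPM in controls, led by apobb.1 and apoa1b. Skin genes, with 10 of 11 on a row, summed to 725 to 3338 CPM in mutants and 2674 to 35581 CPM in controls, led by krt4 and krt8. At an unadjusted p under 0.05 edgeR counted 10 of 12 tested liver and yolk, 2 of 4 skin and 1 of 2 endothelial genes as lower in mutants. The share over all tested genes was 3.49%. Of these rows, apoa2, apoa1a, tfa, rbp4 and flt4 passed the filter on low counts through the controls alone. A difference was thus built into their passing. After adjustment DESeq2 called 6 liver and yolk genes and 1 skin gene lower, against 0.703% of all genes with an adjusted p, and edgeR called 0. Control 3 was the highest library for both lists, at 96739 and 35581 CPM. A large share of one source lowers the CPM of every other gene in a library, and TMM scaling divides by 1.08, 1.21 and 1.40 in mutants 1 to 3 and by 0.820, 0.737 and 0.905 in controls 1 to 3. The part of these sources in the levels of the 3 Notch genes was not tested.

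**Figure D5:**
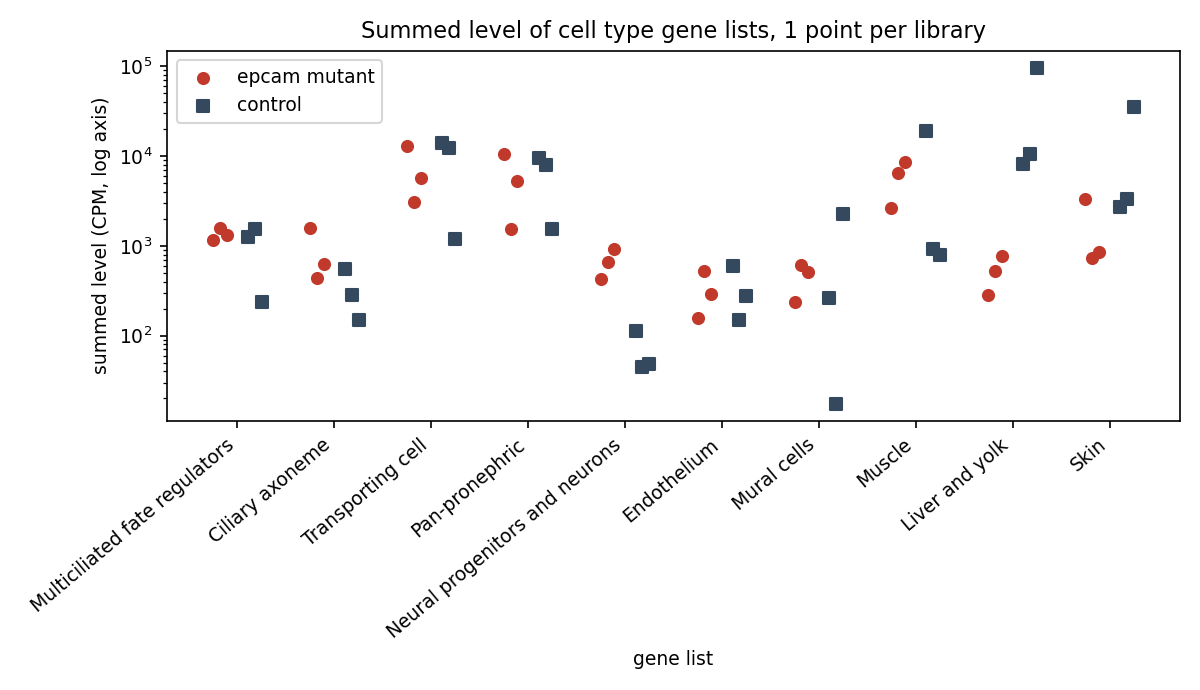
Summed level (CPM, log axis) of 10 gene lists, 1 point per library, with mutants (red circles) left of controls (dark squares) and libraries 1 to 3 running left to right. Neural sums are 424 CPM or more in mutants and 112 CPM or less in controls, liver and yolk sums lie the other way, and the multiciliated, transporting and pan-pronephric sums overlap.

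Within the libraries that share a name prefix, control 3 is the only control. There jag2b had 1428, 409.9 and 112 CPM in mutants 1 to 3 against 74.5 CPM in control 3, notch3 had 331, 94.6 and 8093 CPM against 63.8 CPM, and lfng had 63.9, 78.8 and 116 CPM against 0 CPM. By library total all 3 genes were above control 3 in every mutant. For notch3, mutant 2 and control 3 each had 12 counts. Their counting intervals, 48.9 to 165 CPM and 33.0 to 111 CPM, overlapped. Levels above control 3 were common: in the fit to these libraries alone the median log2 fold change of 8035 genes was 1.16. The share of all genes above control 3 in every mutant was not counted. With TMM scaling jag2b in mutant 3 was below control 3, at 80.0 against 82.3 CPM. In the values as deposited jag2b in mutant 3 was 45 against 46 in control 3, and notch3 in mutant 2 was 43 against 44 in control 3. Those values hold constants of 17 in mutant 3, 31 in mutant 2 and 32 in control 3, and are not scaled for depth. In the fit with the prefix as a second term the log2 fold change of jag2b was 2.72 ± 1.96 and that of notch3 was 4.77 ± 2.66 (SE), where genotype rests on that 1 control. Prefix and genotype cannot be told apart for controls 1 and 2, since no mutant carries their prefix.

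The genes most like each of the 3 over the 6 libraries were found by Pearson's r of log2(CPM + 10) among 3869 tested genes, as a description with 6 points per gene. For jag2b they were zcchc14 (r = 0.99), the histone demethylase kdm7ab (0.98) and the ubiquitin ligase rnf213b (0.98). The counts of zcchc14 were 76, 18 and 12 in mutants 1 to 3, against 0, 1 and 2 in controls 1 to 3, the same descent over the mutants. For notch3 they were the endosomal transport gene mon2 (0.98), the histone acetyltransferase cofactor trrap (0.97) and the protocadherin FAT4 (0.94). Each of these was highest in mutant 3, with 187, 574 and 694 CPM, and r of mon2 was 0.84 without that library. For lfng they were the DNA repair gene fancd2, the Ras regulator rasal2 and the calcium channel gene cacna1i, at r of 0.997, 0.996 and 0.996. The counts of fancd2 were 11, 12 and 27 in mutants 1 to 3, against 3, 5 and 1 in controls 1 to 3. The pattern of lfng was common, with 114 genes above an r of 0.95, against 17 for jag2b and 2 for notch3.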

How the data were processed

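The deposited table holds whole-number counts per gene row for each library, and its name calls them filtered raw counts. Per the submitters' processing notes, the build was GRCz10 and the tools included TopHat2 2.1.0, Trimmomatic 0.36.0 and DESeq2, with no counting tool stated. Per the labels' protocols, cDNA was made with random and oligo(dT) primers, amplified and sequenced without strand information. In 5 of 6 libraries the lowest of 10022 values is above 0. This was read as 1 constant added per library and subtracted, an inference that no label or header states, and a departure from testing counts as deposited. Fits to the values as deposited are alternatives. The authors' second table gives FDR values (adjusted p-values) and no fold changes.

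Rows were matched to lists by name, ignoring case, or by symbol in the reference table, which held 9641 of the identifiers. The main test was edgeR 4.0.16 (R 4.3.3) with filterByExpr by group (3869 rows kept), TMM scaling, a robust quasi-likelihood fit with group as the only term, and a Benjamini-Hochberg threshold of 0.05. It was also run on simulated data, with the same setting for spread in all genes and changes only in genes with a mean count of at least 20. That run cannot show how the test performs at the spread between these libraries. DESeq2 1.42.0 (on all rows) and limma 3.58.1 were alternatives. The SE is the log2 fold change over the square root of F. CPM are of the library total unless TMM is named. The factors for TMM-scaled CPM were computed on all 10022 rows, whereas the fit computed its own on the rows kept. Intervals and floors (3 counts) cover counting error only, since amplified reads are not independent molecules.

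Overlap and sums on TMM-scaled CPM were added after the data were seen. The genes and lists were chosen with earlier results of these data known. By rule, named genes were the 3 genes, every ligand, receptor and fringe gene with a row, the 2 most abundant and 2 lowest-p genes of each other pathway role, the 2 most abundant of each cell type list, and the 3 most alike by r. Further genes of the pathway roles and cell type lists were named outside this rule, with their values known. Levels per coding length and promoter motifs were planned but not run, since no sequence or transcript length was used here. Genes without a row are not analysed here.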

Additional observations from a re-analysis of the deposited data

How the results depend on the processing

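Across all rows edgeR called 0 genes after adjustment, and 0 with any 1 library left out. The count was 53 without a filter on low counts, 349 with DESeq2, 6 with the library-name prefix as a second term and 12 within the libraries of the shared prefix, where control 3 is the only control and is assumed to vary like the mutants; the cause was not tested. Among the other Notch pathway genes the count was 0 under each of these settings and with any 1 library left out. The log2 fold change of jag2b was 1.95 on the values as deposited and 2.21 to 4.46 with 1 library left out. That of notch3 ranged from 0.31 to 4.29 with 1 library left out, lowest without mutant 3. The fitted value of lfng, 5.39, depends on the prior count; it was 1.37 on the values as deposited, 5.74 with upper-quartile scaling, 5.01 with limma-voom, 7.56 with the prefix as a term, 6.91 within the shared prefix and 4.66 to 7.16 with 1 library left out. With a mean count of at least 20 required, lfng was not tested. Same-numbered mutants and controls did not deviate together (r of 0.08, -0.05 and 0.03 across genes). Libraries of a group were themselves little correlated, so these values cannot decide whether the numbers pair the samples. With the replicate block edgeR called 0 genes, and the values were 3.39 for jag2b, 1.68 for notch3 and 5.73 for lfng. Of 14 other named pathway genes that were tested, 9 changed sign under at least 1 alternative and 5 under none. The median of all tested genes moved by scaling, from -0.10 with TMM to 0.19 with upper quartiles. Depth limits lfng most: its control level rests on 2 counts.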

Other observations

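3 further rows of the Notch and her families stood outside the lists and were looked at after the table was read. The row notchl, annotated as a Notch-like homolog, was counted 17, 2 and 3 times in mutants 1 to 3, against 0, 40 and 1 times in controls 1 to 3. A row annotated as a Delta-like protein (ENSDARG00000068104, GRCz10 chromosome 18) was counted 0, 13 and 26 times in mutants 1 to 3, against 0, 0 and 4 times in controls 1 to 3. The hairy-related gene her13 was counted 1, 12 and 0 times in mutants 1 to 3, against 1, 0 and 0 times in controls 1 to 3. Groups overlapped for all 3.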
